A study of Homo sapiens with 8 samples.

Results

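The 25 genes described here encode integrins, cadherins and protocadherins expressed in MEL202, a human uveal melanoma cell line with mutant SF3B1, a gene for a splicing factor. They were chosen by name and level, with earlier results of these data known. A gene was taken when its symbol was ITGA or ITGB with a number, ITGAV, CDH with a number, or began with PCDH. Its most abundant locus also had to average 1 or more across the 8 libraries. The rule left out CDH1, or E-cadherin, by name and whatever its level, so CDH1 is not among the symbols counted here. Of 71 symbols that fitted the names, 25 reached this level and 46 did not, in a table of 32087 loci from which 11889 named genes were tested. The 25 comprised 7 of 12 integrin alpha subunits, 2 of 7 beta subunits, 7 of 20 cadherins, 5 of 18 symbols of the clustered protocadherins and 4 of 14 other protocadherin symbols.

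RNA was sequenced from 4 MEL202 lines, each with and without Shld, a small ligand that protects a degron-tagged protein from degradation. The lines were parental cells, a line labelled as a knockout of mutant SF3B1, and 2 lines with a degron (DD in the labels). In the mutant degron line it is attached to mutant SF3B1, and in the wildtype degron line to wildtype SF3B1. Each line and Shld state had 1 library, so tests between lines took the 2 libraries of a line as its pair. Separate cultures are not stated, so a p-value here speaks for the spread of these libraries only. The labels give 2 days for the 3 derived lines and list each line under the tag clone, so a difference between lines cannot be told apart from a difference between clones. The table's own column names add a degron on wildtype SF3B1 to the knockout line, and name its library without Shld, like that of the parental cells, as 4 days.

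The deposited values are FPKM-type levels (fragments per transcript length), rescaled in each library so that the 75th percentile over all loci is 10. They are given below for the library with Shld and then for the one without. Absolute depth was unknown, and low values gave 1.04 to 1.47 times as many fragments per unit in the other 7 libraries as in the parental library with Shld. SF3B1 itself stood at 266 and 239.8 in parental cells, 158 and 138 in the knockout line, 248 and 252 in the mutant degron line and 188 and 201 in the wildtype degron line.

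Integrins are receptors made of an alpha and a beta subunit. They bind collagens, laminins and fibronectin outside the cell and, through talin and kindlin, the actin cytoskeleton inside it. Classical cadherins join neighbouring cells by binding cadherins of the other cell, and catenins anchor them to actin. Protocadherins form a large branch of the cadherin superfamily. Those of the alpha, beta and gamma gene clusters are read from promoters of their own and are best known for giving neurons an individual surface identity. In the melanocyte lineage, integrins tie the cell to its matrix and cadherins to its neighbours.

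Most of the 25 genes stood higher in the derived lines than in parental cells. In the knockout line 23 of 25 differed from parental cells, 19 higher and 4 lower (limma, adjusted p below 0.05 over all genes tested), where 37.8% of all genes tested passed, 17.3% higher and 20.5% lower. In the mutant degron line 17 were higher and 3 lower, against a background of 24.6% for both directions, 10.9% higher and 13.7% lower. In the wildtype degron line 17 were higher and 1 lower, against 41.4% for both directions, 20.5% higher and 20.9% lower. This last count is the least firm. It fell most without the parental library with Shld or without the wildtype degron library without Shld, and so did the count over all genes. Several of its calls were also lost without the wildtype degron library with Shld. With all 8 libraries but no filter on the mean, 12 of the 18 calls were kept.

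The median log2 difference of the 25 genes from parental cells was 0.83 in the knockout line, 0.64 in the mutant degron line and 0.49 in the wildtype degron line, beside -0.03, -0.04 and 0.0003 over all genes tested. All differences were computed from log2(value + 1), a scale that understates changes of genes with low levels, and the figure after ± is the standard error. The 2 libraries of a line did not overlap with the parental pair in 23, 24 and 22 of 25 genes, where 67.7%, 68.3% and 75.2% of all genes did not. These comparisons share the parental libraries, so they are set side by side and not counted as separate evidence. CDH6 and CDH4 passed the level rule only through the lines in which they were high, so they had to differ. Without them the counts were 18 higher and 3 lower of 23 in the knockout line, 16 and 2 in the mutant degron line and 17 and 1 in the wildtype degron line. The lowest line mean was that of the parental cells in 16 genes, the wildtype degron line in 4, the knockout line in 3 and the mutant degron line in 2. The highest was that of the knockout line in 11 genes, the wildtype degron line in 8 and the mutant degron line in 6.

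**Figure D1:**
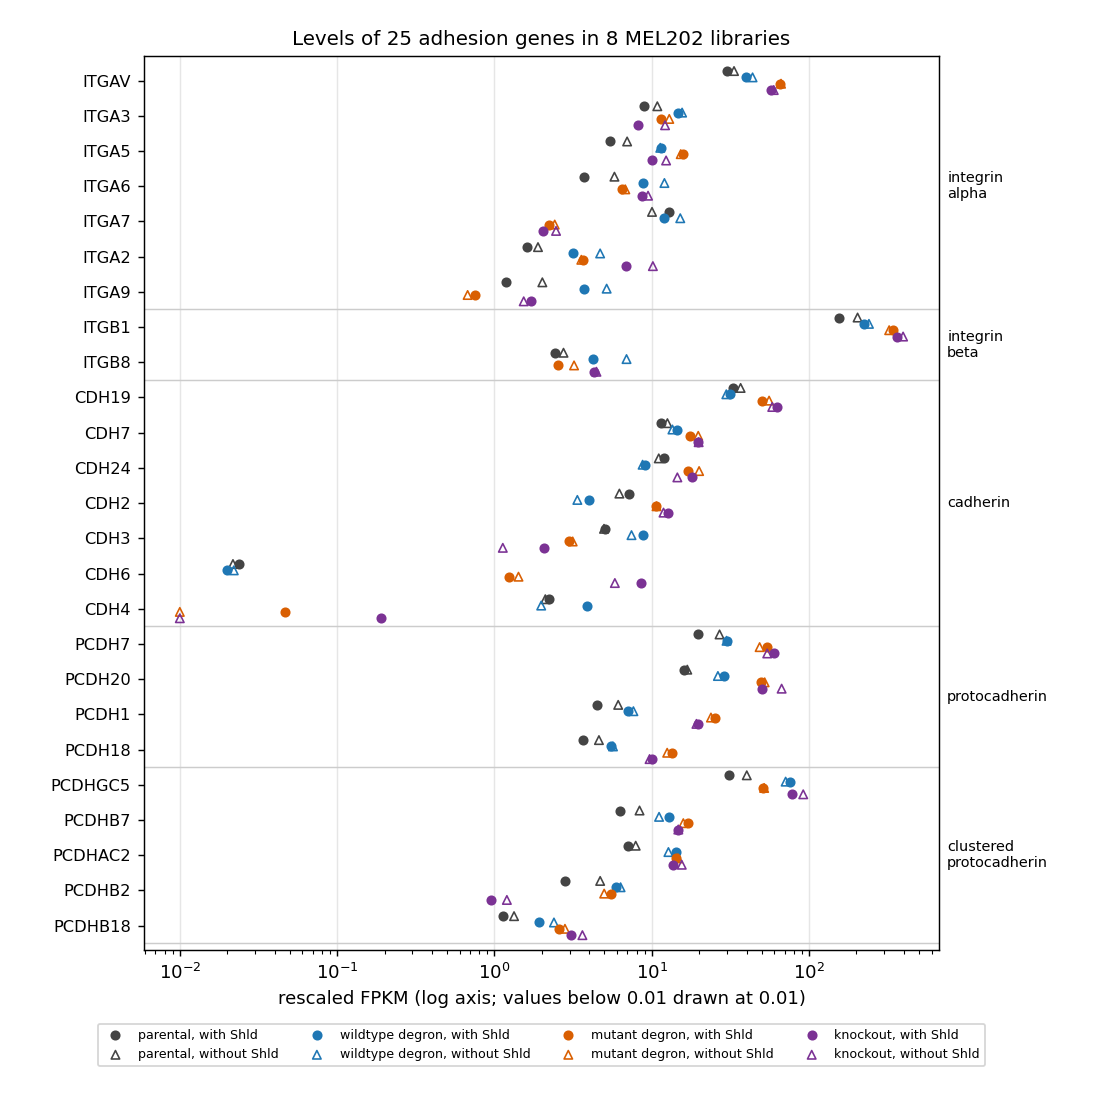
Levels of the 25 genes in the 8 libraries as rescaled FPKM on a log axis, with values below 0.01 drawn at 0.01. Each row is a gene, filled circles are libraries with Shld, open triangles libraries without, and colours are lines. ITGB1 has the highest levels, and CDH6 and CDH4 run from near 0 in one pair of lines to above 1 in the other.

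**Figure D2:**
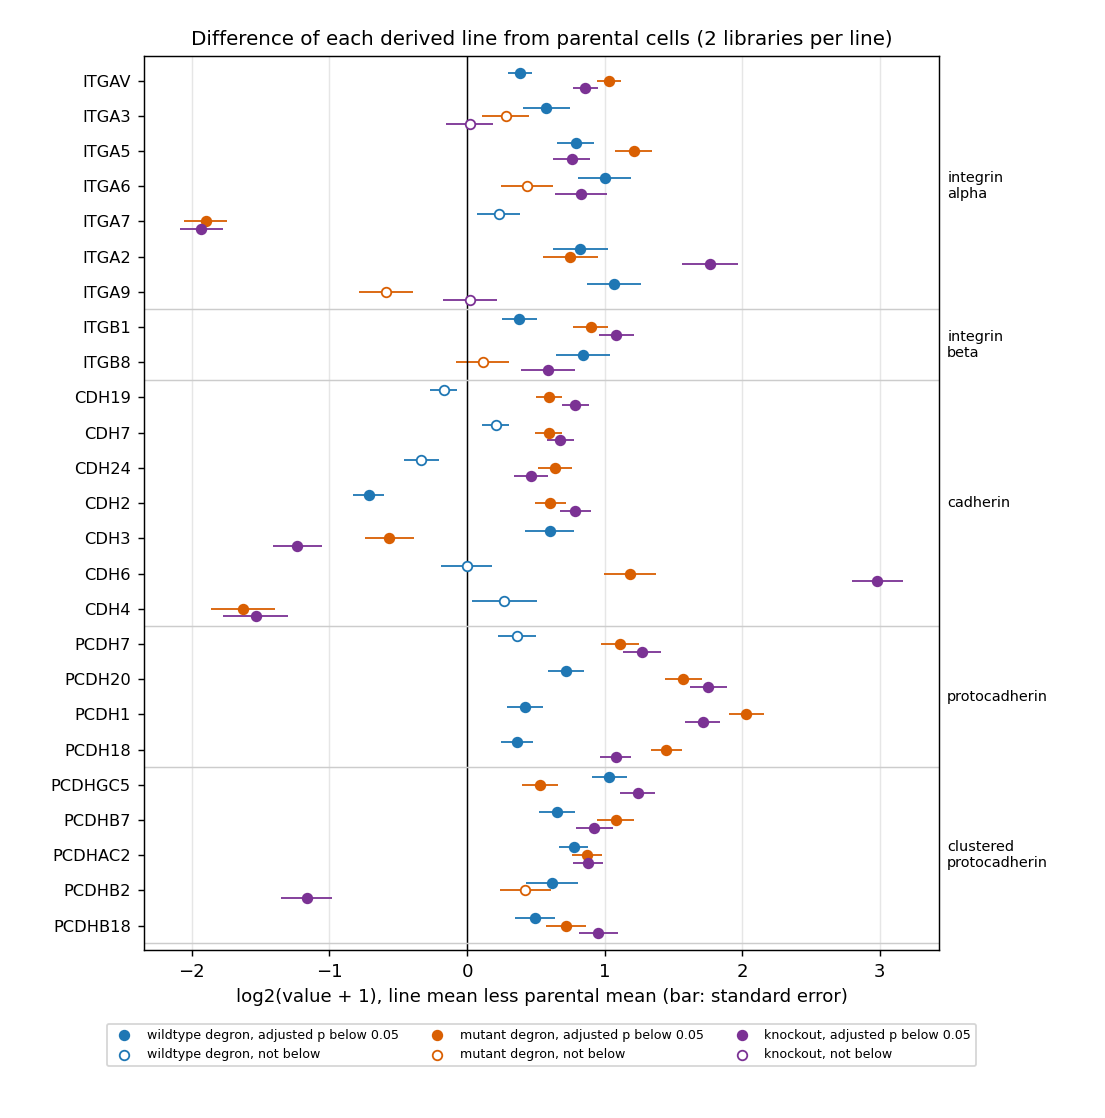
Difference of each derived line from parental cells on the log2(value + 1) scale for the 25 genes, with the standard error of the limma model as a bar. Filled points have an adjusted p below 0.05 and open points do not. Most points lie to the right of 0, while ITGA7, CDH3 and CDH4 lie to the left in the knockout and mutant degron lines.

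By their calls, melanocyte markers differed from parental cells mainly in the knockout line. Of 8 such genes measured (MITF, SOX10, PMEL, MLANA, TYR, TYRP1, DCT and S100B), all 8 were lower in the knockout line, 3 were lower in the mutant degron line, and 3 were higher and 1 lower in the wildtype degron line (limma). Their summed level was 11949 and 12932 in parental cells, 7185 and 6442 in the knockout line, 7561 and 9138 in the mutant degron line and 15399 and 14207 in the wildtype degron line. All 8 were present in every library, and their part in the differences described below was not tested. In bulk RNA, fewer cells of a type and less RNA per cell cannot be told apart.

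Markers of other cell types were mostly low, but single ones moved with the lines. The 5 epithelial genes were below 1 in every library, with sums from 0.0705 to 0.622, and the leukocyte gene PTPRC lay between 0.232 and 1.22, with CD3E listed at 0. Of 5 endothelial genes, PECAM1, VWF and TEK were below 1 in every library. EMCN, a sialomucin, was at 44.4 and 44.4 in parental cells, 53.2 and 44.7 in the knockout line, 80.7 and 80.8 in the mutant degron line and 35.8 and 35.4 in the wildtype degron line, and was called higher in the mutant degron line (0.85 ± 0.09) and lower in the wildtype degron line (-0.31 ± 0.09). KDR, a VEGF receptor too low to be tested, read 1.40 and 1.18 in mutant degron cells and under 1 in the other 6 libraries. Of the fibroblast genes measured, LUM, or lumican, was at 29.6 and 20.7 in parental cells, 1.66 and 1.61 in the knockout line, 6.36 and 7.98 in the mutant degron line and 12.9 and 10.8 in the wildtype degron line. It was called lower in all 3 derived lines (-3.29 ± 0.18, -1.67 ± 0.18 and -1.01 ± 0.18; limma, adjusted p = 5.4e-06, 0.000457 and 0.00332), while DCN was below 1 and THY1 was listed at 0. Of 4 neuronal genes, TUBB3 alone was above 1, at 173 to 261, and it was called higher in the knockout line (0.52 ± 0.09). The part of these markers in the differences was not tested.

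Among the integrin alpha subunits, which decide the ligand that a receptor binds, those of the fibronectin and vitronectin receptors were higher in all 3 derived lines, and those of the laminin receptors went different ways. Of the 7 genes, 4 were higher and 1 lower in the knockout line, 3 higher and 1 lower in the mutant degron line, and 6 higher in the wildtype degron line, beside 37.8%, 24.6% and 41.4% of all genes that passed in either direction. ITGAV, the alpha V subunit that recognises RGD motifs, was the most abundant, at 30.1 and 33.3 in parental cells, 57.2 and 59.6 in the knockout line, 65.1 and 66.3 in the mutant degron line and 39.9 and 43.7 in the wildtype degron line. No library of a derived line reached down to the parental pair. The differences were 0.86 ± 0.09, 1.03 ± 0.09 and 0.39 ± 0.09 in the knockout, mutant degron and wildtype degron lines (limma, adjusted p = 0.000177, 0.000141 and 0.00899). ITGA5, which with beta 1 forms the classical fibronectin receptor, was at 5.39 and 6.97 in parental cells, 9.98 and 12.3 in the knockout line, 15.8 and 15.3 in the mutant degron line and 11.4 and 11.3 in the wildtype degron line. It rose by 0.76 ± 0.13, 1.21 ± 0.13 and 0.79 ± 0.13 (limma, adjusted p = 0.00276, 0.0006 and 0.00306), again with no overlap with the parental pair. The ITGAV call in the wildtype degron line was lost without the parental library with Shld or the wildtype degron library without it (adjusted p = 0.0629 to 0.0701).

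ITGA2, a subunit of a collagen receptor, was low in parental cells and highest in the knockout line. Its level was 1.61 and 1.89 in parental cells, 6.81 and 10.2 in the knockout line, 3.68 and 3.56 in the mutant degron line and 3.15 and 4.69 in the wildtype degron line. The 8 libraries thus formed 3 steps, with both degron lines between parental cells and the knockout line. It rose by 1.77 ± 0.20, 0.75 ± 0.20 and 0.82 ± 0.20 (limma, adjusted p = 0.000316, 0.0277 and 0.0123). The mutant degron call was lost without any 1 of the 4 libraries compared (adjusted p = 0.0664 to 0.144), and the wildtype degron call without the parental library with Shld or the wildtype degron library without it (adjusted p = 0.0841 to 0.0869).

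ITGA7, a laminin receptor subunit best known from muscle, divided the lines into 2 sets. Its level was 12.9 and 10.0 in parental cells, 2.03 and 2.46 in the knockout line, 2.22 and 2.41 in the mutant degron line and 12.0 and 15.2 in the wildtype degron line. Parental and wildtype degron cells were high and overlapped, and the 4 libraries of the other lines were all far below them. It fell by 1.93 ± 0.16 in the knockout line and by 1.90 ± 0.16 in the mutant degron line, while the difference of 0.23 ± 0.16 in the wildtype degron line did not pass (limma, adjusted p = 5.03e-05, 0.000119 and 0.267). ITGA7 made up 17.0% of the summed alpha subunit level in parental cells, 2.22% in the knockout line and 2.17% in the mutant degron line, while the share of ITGAV was 47.1%, 57.8% and 61.6%.

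The other laminin receptor subunits did not follow ITGA7. ITGA6 was at 3.70 and 5.79 in parental cells, 8.62 and 9.47 in the knockout line, 6.48 and 6.78 in the mutant degron line and 8.79 and 12.0 in the wildtype degron line. It was higher in the knockout and wildtype degron lines (0.83 ± 0.19 and 1.00 ± 0.19), and the 0.44 ± 0.19 of the mutant degron line did not pass (limma, adjusted p = 0.00968, 0.00447 and 0.128). ITGA3 was at 8.90 and 10.8 in parental cells, 8.16 and 12.1 in the knockout line, 11.4 and 12.9 in the mutant degron line and 14.7 and 15.6 in the wildtype degron line. It passed in the wildtype degron line, at 0.58 ± 0.17 (adjusted p = 0.0255), while the knockout pair lay on both sides of the parental values. The ITGA6 call in the knockout line was lost without the parental library with Shld (adjusted p = 0.0664), and that of ITGA3 without that library or either wildtype degron library (adjusted p = 0.0751 to 0.171).

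ITGA9, whose receptor binds tenascin and osteopontin, was the scarcest of the 7 and was at 1.19 and 2.02 in parental cells, 1.70 and 1.53 in the knockout line, 0.747 and 0.675 in the mutant degron line and 3.69 and 5.17 in the wildtype degron line. The knockout pair lay within the parental range, the mutant degron pair below it and the wildtype degron pair above it. It rose in the wildtype degron line by 1.07 ± 0.20 (limma, adjusted p = 0.00401), and its -0.59 ± 0.20 in the mutant degron line did not pass (adjusted p = 0.0604).

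ITGB1, the beta 1 subunit that can pair with all 7 of these alpha subunits, was the most abundant of the 25 genes. It was at 156 and 203 in parental cells, 362 and 396 in the knockout line, 343 and 323 in the mutant degron line and 224 and 240.0 in the wildtype degron line. Every derived library lay above the parental pair, and the knockout and mutant degron libraries above those of the wildtype degron line. It rose by 1.08 ± 0.13, 0.90 ± 0.13 and 0.38 ± 0.13 (limma, adjusted p = 0.000344, 0.00179 and 0.0396). The call in the wildtype degron line was lost under median scaling, with no filter on the mean, and with all loci tested. It was also lost without the parental library with Shld, either mutant degron library or either wildtype degron library. The ratio of ITGB1 to the summed alpha subunit level was 2.44 and 2.87 in parental cells, 3.83 and 3.67 in the knockout line, 3.25 and 2.99 in the mutant degron line and 2.39 and 2.23 in the wildtype degron line. It was thus higher in the knockout pair than in the other 6 libraries and lowest in the wildtype degron pair, a description without a test.

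ITGB8, which pairs with alpha V and frees active TGF-beta from its latent form, was the only other beta subunit above the level rule. It was at 2.41 and 2.75 in parental cells, 4.30 and 4.45 in the knockout line, 2.55 and 3.21 in the mutant degron line and 4.20 and 6.91 in the wildtype degron line. The knockout and wildtype degron pairs lay above the parental pair, and the mutant degron pair overlapped it. It was higher in the knockout and wildtype degron lines by 0.59 ± 0.19 and 0.84 ± 0.19 (limma, adjusted p = 0.0424 and 0.00969). The first call was lost without any 1 of the parental, knockout or mutant degron libraries (adjusted p = 0.0578 to 0.183), and the second without the parental library with Shld or the wildtype degron library without it (adjusted p = 0.0544 to 0.0731). With all 8 libraries kept, the ITGB8 call in the knockout line was also lost with a pseudocount of 5, with no filter on the mean, and with all loci tested. ITGB3, the beta 3 subunit followed in skin melanoma as a marker of progression, had a mean of 0.157 and was not tested.

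**Figure D3:**
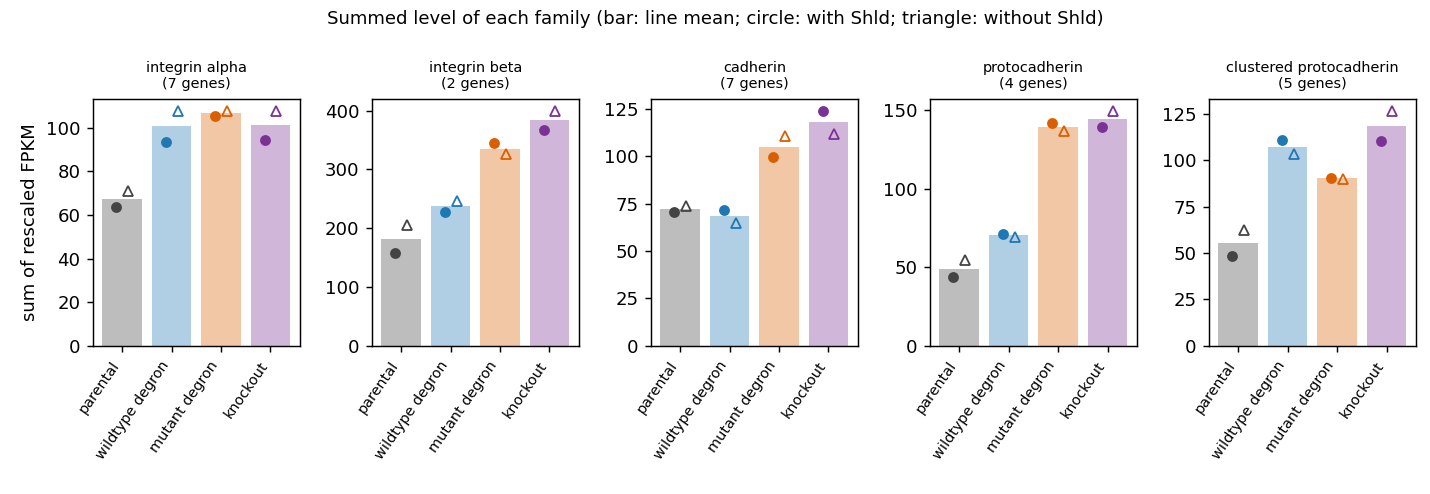
Summed rescaled FPKM of the genes of each family by line. Bars start at 0 and give the mean of the 2 libraries, circles are libraries with Shld and triangles libraries without. The alpha subunit sum is 93.6 to 108 in the derived libraries against 63.8 and 70.9 in parental cells, and the sums of the 7 cadherins and of the 4 protocadherins outside the clusters are high in the knockout and mutant degron lines.

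Of the 5 cadherins other than CDH6 and CDH4, 4 were higher and 1 lower than in parental cells in the knockout line and also in the mutant degron line, and 1 was higher and 1 lower in the wildtype degron line, where 37.8%, 24.6% and 41.4% of all genes passed. The summed level of all 7 was 70.4 and 73.6 in parental cells, 124 and 111 in the knockout line, 99.5 and 111 in the mutant degron line and 71.9 and 64.8 in the wildtype degron line.

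CDH2 and CDH3 moved in opposite directions in each derived line. CDH2, or N-cadherin, the cadherin of neural and mesenchymal cells, was at 7.13 and 6.22 in parental cells, 12.6 and 11.9 in the knockout line, 10.6 and 10.7 in the mutant degron line and 4.01 and 3.36 in the wildtype degron line. It rose by 0.79 ± 0.11 and 0.61 ± 0.11 in the knockout and mutant degron lines and fell by 0.71 ± 0.11 in the wildtype degron line (limma, adjusted p = 0.000985, 0.0065 and 0.00254). CDH3, or P-cadherin, a cadherin of epithelia and melanocytes, was at 5.05 and 4.97 in parental cells, 2.07 and 1.13 in the knockout line, 2.99 and 3.14 in the mutant degron line and 8.84 and 7.43 in the wildtype degron line. The 4 lines did not overlap for either gene, and their order was reversed between the 2 genes. CDH3 fell by 1.23 ± 0.18 and 0.56 ± 0.18 in the knockout and mutant degron lines and rose by 0.60 ± 0.18 in the wildtype degron line (limma, adjusted p = 0.000968, 0.0476 and 0.0249). The CDH2 call in the mutant degron line was lost without that line's library with Shld (adjusted p = 0.0515). For CDH3 the mutant degron call was lost without any 1 library of the parental, mutant degron or wildtype degron lines (adjusted p = 0.0631 to 0.194), and the wildtype degron call without any 1 of the 4 libraries compared (adjusted p = 0.0513 to 0.134).

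CDH19 and CDH7, type II cadherins of the neural crest and its derivatives, are direct neighbours on chromosome 18, with 0 protein-coding genes between them in RefSeq. CDH19 was the most abundant cadherin, at 32.7 and 36.7 in parental cells, 62.9 and 58.3 in the knockout line, 50.1 and 55.7 in the mutant degron line and 31.6 and 29.8 in the wildtype degron line. CDH7 was at 11.4 and 12.6 in parental cells, 19.6 and 19.9 in the knockout line, 17.5 and 19.7 in the mutant degron line and 14.4 and 13.5 in the wildtype degron line. Both were higher in every library of the knockout and mutant degron lines than in the parental pair, by 0.79 ± 0.10 and 0.59 ± 0.10 for CDH19 (limma, adjusted p = 0.000452 and 0.00345) and 0.68 ± 0.10 and 0.60 ± 0.10 for CDH7 (adjusted p = 0.00103 and 0.00373). In the wildtype degron line the differences were -0.17 ± 0.10 for CDH19 and 0.21 ± 0.10 for CDH7, and neither passed (adjusted p = 0.188 and 0.118). CDH24, another type II cadherin, was at 11.9 and 11.1 in parental cells, 18.1 and 14.5 in the knockout line, 17.0 and 19.99 in the mutant degron line and 9.08 and 8.74 in the wildtype degron line. It was higher in the knockout and mutant degron lines by 0.47 ± 0.12 and 0.64 ± 0.12 (limma, adjusted p = 0.0186 and 0.00779), and its -0.33 ± 0.12 in the wildtype degron line did not pass. The knockout call of CDH24 was lost without either parental library or the knockout library with Shld (adjusted p = 0.0597 to 0.0834), and its mutant degron call without the mutant degron library without Shld (adjusted p = 0.0656).

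CDH6 and CDH4 were near 0 in opposite pairs of lines. CDH6, a type II cadherin of kidney and neural crest, was at 0.0236 and 0.0218 in parental cells, 8.58 and 5.82 in the knockout line, 1.23 and 1.42 in the mutant degron line and 0.0199 and 0.0220 in the wildtype degron line. The 4 libraries of the knockout and mutant degron lines were each above the other 4, with differences from parental cells of 2.98 and 1.18. CDH4, or R-cadherin, a cadherin of retina and brain, was at 2.22 and 2.10 in parental cells, 0.190 and 0 in the knockout line, 0.0464 and 0 in the mutant degron line and 3.89 and 1.98 in the wildtype degron line. The values at 0 are as listed and can be failed estimates. The parental and wildtype degron libraries were all above the other 4, with differences from parental cells of -1.54 in the knockout line and -1.63 in the mutant degron line. The level rule itself made both genes differ between lines, so these values are a description without a test.

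The 4 protocadherins outside the clusters were all higher in the knockout and mutant degron lines, each by more than 1 on the log2 scale. In these lines 7.42% and 3.80% of all genes differed by at least 1. In the wildtype degron line 3 of the 4 were called higher, where 20.5% of all genes tested were. PCDH1, of the delta group, was at 4.46 and 6.12 in parental cells, 19.6 and 19.2 in the knockout line, 25.1 and 23.8 in the mutant degron line and 7.07 and 7.64 in the wildtype degron line. Its difference was the widest of the 4 in the mutant degron line, and that of PCDH20 in the other 2 lines. It rose by 1.71 ± 0.13, 2.03 ± 0.13 and 0.42 ± 0.13 (limma, adjusted p = 3.44e-05, 4.02e-05 and 0.0296). PCDH20 was at 16.0 and 16.8 in parental cells, 49.8 and 66.9 in the knockout line, 49.4 and 52.2 in the mutant degron line and 29.0 and 26.3 in the wildtype degron line. Its 4 lines did not overlap except for the knockout and mutant degron pairs. The differences were 1.75 ± 0.13, 1.57 ± 0.13 and 0.72 ± 0.13 (adjusted p = 3.44e-05, 0.000133 and 0.00401), and all 3 calls held in every alternative run.

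PCDH7, also of the delta group, had a high level in every line, at 19.7 and 27.0 in parental cells, 60.1 and 54.2 in the knockout line, 53.8 and 48.5 in the mutant degron line and 29.9 and 29.9 in the wildtype degron line. It rose by 1.27 ± 0.14 and 1.11 ± 0.14 in the knockout and mutant degron lines (limma, adjusted p = 0.000244 and 0.00104), and the 0.36 ± 0.14 of the wildtype degron line did not pass (adjusted p = 0.0664). PCDH18 was at 3.67 and 4.61 in parental cells, 9.98 and 9.68 in the knockout line, 13.5 and 12.5 in the mutant degron line and 5.50 and 5.67 in the wildtype degron line. Like PCDH1 it was highest in the mutant degron line, and it rose by 1.08 ± 0.11, 1.45 ± 0.11 and 0.36 ± 0.11 (adjusted p = 0.000221, 0.000102 and 0.0343). The wildtype degron calls of PCDH1 and PCDH18 were lost without the parental library with Shld, either mutant degron library or either wildtype degron library (adjusted p = 0.051 to 0.184 for PCDH1 and 0.0584 to 0.213 for PCDH18). Both were also lost with no filter on the mean, and that of PCDH18 under median scaling.

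The clustered protocadherins lie on chromosome 5, where RefSeq places PCDHAC2 of the alpha cluster, PCDHB2 and PCDHB7 of the beta cluster, PCDHGC5 of the gamma cluster and, 5 protein-coding genes further on, PCDH1. Many of their promoters carry a conserved sequence element with the core CGCT. Promoters of 3 of the 5 genes were taken from RefSeq (GRCh38.p14, plus strand, 250 bases before the annotated start to 50 after it), while the deposited table was made on hg19. They are shown because PCDHB2 and PCDHB7, which share a stretch there, differed in direction in the knockout line, and PCDHAC2 serves as the neighbour from another cluster. In PCDHB2 and PCDHB7 the capitals mark the longest stretch common to both, 11 bases that contain the core, and in PCDHAC2 they mark CGCT on either strand. A match this short occurred in 70.0% of all promoters, so the capitals in PCDHAC2 do not show that it carries the element.
PCDHB2, chr5:141094365-141094664: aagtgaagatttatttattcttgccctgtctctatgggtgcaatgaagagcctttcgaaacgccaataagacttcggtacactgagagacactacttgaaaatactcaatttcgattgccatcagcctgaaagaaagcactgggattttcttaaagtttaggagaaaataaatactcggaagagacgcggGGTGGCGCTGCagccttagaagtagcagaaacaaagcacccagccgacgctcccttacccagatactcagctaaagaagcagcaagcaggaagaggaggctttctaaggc
PCDHB7, chr5:141172394-141172693: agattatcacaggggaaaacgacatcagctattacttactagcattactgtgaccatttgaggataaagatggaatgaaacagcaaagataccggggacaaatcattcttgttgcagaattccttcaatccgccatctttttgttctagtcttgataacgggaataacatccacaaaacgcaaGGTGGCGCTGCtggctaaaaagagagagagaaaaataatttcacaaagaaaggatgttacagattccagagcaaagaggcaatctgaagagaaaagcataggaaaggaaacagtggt
PCDHAC2, chr5:140966226-140966525: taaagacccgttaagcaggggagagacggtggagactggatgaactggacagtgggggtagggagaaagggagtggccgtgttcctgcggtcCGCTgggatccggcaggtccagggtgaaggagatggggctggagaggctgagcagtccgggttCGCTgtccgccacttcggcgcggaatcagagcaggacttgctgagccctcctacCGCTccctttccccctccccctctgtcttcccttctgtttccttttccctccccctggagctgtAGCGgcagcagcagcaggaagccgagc
The shared stretch, GGTGGCGCTGC, begins 60 bases before the start of PCDHB2 and 67 bases before that of PCDHB7, and it was picked after these promoters had been compared. On either strand it occurred in 11 of 14 promoters of the beta cluster, 0 of 13 of the alpha cluster, 0 of 25 of the gamma cluster and 36 of 35116 promoters of this length. Of the 11 beta genes with the stretch, 7 had a locus in the table. PCDHB2 and PCDHB7 had a mean of at least 1, and the other 5 lay between 0.0351 and 0.571, so the stretch occurred at both high and low levels. Over all members, 16 of 25 matched RefSeq with 22 promoters. CGCT was in 19 of the 22 and in 70.0% of all promoters, the GC box GGGCGG in 9 and 45.0%, and CACCTG, the E-box of SNAI and ZEB factors, in 3 and 20.6% (both strands, motifs counted separately).

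PCDHB2 and PCDHB7, alike in this stretch, parted in the knockout line. PCDHB2 was at 2.79 and 4.70 in parental cells, 0.954 and 1.20 in the knockout line, 5.51 and 4.98 in the mutant degron line and 5.95 and 6.33 in the wildtype degron line. This gene fell by 1.16 ± 0.19 in the knockout line and rose by 0.62 ± 0.19 in the wildtype degron line (limma, adjusted p = 0.00178 and 0.0283), the latter lost without the parental library with Shld or either wildtype degron library (adjusted p = 0.0817 to 0.178). PCDHB7 was at 6.26 and 8.36 in parental cells, 14.6 and 14.7 in the knockout line, 17.0 and 15.9 in the mutant degron line and 12.9 and 11.1 in the wildtype degron line. It rose in all 3 derived lines, by 0.93 ± 0.13, 1.08 ± 0.13 and 0.65 ± 0.13 (adjusted p = 0.001, 0.000973 and 0.00582). Beta cluster genes are near-identical in long parts, so reads may be shared among them and values of single genes are uncertain to that extent.

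The locus named PCDHGC5 was the most abundant of the clustered set, at 31.0 and 40.1 in parental cells, 78.1 and 91.7 in the knockout line, 51.0 and 51.8 in the mutant degron line and 75.8 and 70.9 in the wildtype degron line. The knockout and wildtype degron pairs were above the mutant degron pair, which was above the parental pair. It rose by 1.24 ± 0.13, 0.53 ± 0.13 and 1.03 ± 0.13 (limma, adjusted p = 0.000201, 0.0191 and 0.0016), the mutant degron call being lost without the parental library with Shld or either mutant degron library (adjusted p = 0.0968 to 0.101). PCDHAC2 was at 7.03 and 7.90 in parental cells, 13.7 and 15.5 in the knockout line, 14.3 and 14.7 in the mutant degron line and 14.2 and 12.8 in the wildtype degron line. The 3 derived lines stood close together, at 0.88 ± 0.11, 0.87 ± 0.11 and 0.77 ± 0.11 above parental cells (adjusted p = 0.000428, 0.000952 and 0.00188). Transcripts of the alpha cluster, and likewise of the gamma cluster, end in exons common to the cluster, so reads of other first exons in these 2 loci cannot be told apart.

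PCDHB18, a pseudogene of the beta cluster, was at 1.14 and 1.33 in parental cells, 3.06 and 3.62 in the knockout line, 2.56 and 2.81 in the mutant degron line and 1.91 and 2.39 in the wildtype degron line. All derived libraries lay above the parental pair. Its differences were 0.96 ± 0.14, 0.72 ± 0.14 and 0.49 ± 0.14 (limma, adjusted p = 0.00134, 0.00906 and 0.0258). Without the parental library with Shld the calls in both degron lines were lost, as was that of the mutant degron line without either of its libraries and that of the wildtype degron line without its library without Shld (adjusted p = 0.0523 to 0.066 and 0.135 to 0.15).

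The derived lines were then compared with each other. The knockout and mutant degron lines, the 2 whose labels name mutant SF3B1, differed in 5 of the 25 genes, 3 higher and 2 lower in the knockout line. Of all genes tested 12.0% passed, 5.88% higher and 6.11% lower. By the column names the knockout line also carries a degron on wildtype SF3B1, as the wildtype degron line does. CDH6, described by its level above, stood 1.80 higher in the knockout line. Without CDH6 and CDH4, 4 of 23 genes differed, 2 higher and 2 lower. ITGA2 was higher by 1.01 ± 0.20 and PCDHGC5 by 0.71 ± 0.13 (limma, adjusted p = 0.0148 and 0.0103). PCDHB2 and CDH3 were lower, with differences of -1.59 ± 0.19 and -0.67 ± 0.18 (adjusted p = 0.00129 and 0.0419). The call of PCDHB2 held in every alternative run. That of CDH3 was lost without any 1 library other than the knockout library with Shld (adjusted p = 0.0597 to 0.188). That of PCDHGC5 was lost without either mutant degron library (adjusted p = 0.0677 to 0.0826), and that of ITGA2 without either of these or the knockout library without Shld (adjusted p = 0.0582 to 0.0928). The 7 genes that lay more than 1 from parental cells in both lines include CDH6 and CDH4, which the level rule made differ. Of the 7, CDH6 was the one called between these 2 lines, a description without a test. For the others the difference was -0.03 ± 0.16 for ITGA7, 0.09 ± 0.24 for CDH4, 0.18 ± 0.13 for PCDH20, 0.16 ± 0.14 for PCDH7, -0.32 ± 0.13 for PCDH1 and -0.37 ± 0.11 for PCDH18, the last 2 with adjusted p = 0.151 and 0.0731.

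Against the wildtype degron line, the knockout line differed in 19 of 25 genes, 13 higher and 6 lower, where 48.9% of all genes passed, 23.8% higher and 25.1% lower. The mutant degron line differed from it in 20, 13 higher and 7 lower, where 49.7% passed, 23.2% higher and 26.5% lower. Both counts include CDH6 and CDH4, which the level rule made differ. Without these genes 17 of 23 differed in the knockout line, 12 higher and 5 lower. In the mutant degron line 18 of 23 did, 12 higher and 6 lower. The 5 cadherins other than CDH6 and CDH4 passed in both comparisons, 4 higher and 1 lower. CDH2 was higher than in the wildtype degron line by 1.50 ± 0.11 in the knockout line and by 1.32 ± 0.11 in the mutant degron line (limma, adjusted p = 2.49e-05 and 8.6e-05). CDH3 was lower, at -1.83 ± 0.18 and -1.16 ± 0.18 (adjusted p = 9.3e-05 and 0.00116). The CDH7 call between the degron lines was lost without the mutant degron or the wildtype degron library without Shld (adjusted p = 0.0751 to 0.0978).

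The 4 protocadherins outside the clusters were also higher than in the wildtype degron line in both the knockout and mutant degron lines, where 23.8% and 23.2% of all genes were. PCDH1 differed by 1.29 ± 0.13 in the knockout line and 1.61 ± 0.13 in the mutant degron line, and PCDH20 by 1.04 ± 0.13 and 0.86 ± 0.13. ITGA7 was lower, at -2.16 ± 0.16 and -2.13 ± 0.16 (limma, adjusted p = 2.01e-05 and 4.12e-05), and so was ITGA9, at -1.04 ± 0.20 and -1.65 ± 0.20. ITGA6 and ITGB8 were lower in the mutant degron line than in the wildtype degron line, at -0.57 ± 0.19 and -0.73 ± 0.19. Without the mutant degron library with Shld or the wildtype degron library without it both of these calls were lost, and that of ITGA6 also without the mutant degron library without Shld (adjusted p = 0.106 to 0.224 for ITGA6 and 0.089 to 0.0932 for ITGB8).

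Shld withdrawal gave no call among these genes. Over the 4 lines 0 of 25 genes passed, and 0 of 11889 (limma, additive model of line and Shld), a background of 0%. This fit seeks a difference shared by the 4 lines, and a response that differs between them counts as spread. The tagged protein and the days named also differ between the pairs, so a response of single lines could go uncalled. At an unadjusted p below 0.05 there were 3 of the 25 genes and 686 of all, or 5.77%. These 3 were integrins: ITGA3 at 0.25 ± 0.09, ITGA6 at 0.28 ± 0.10 and ITGA2 at 0.27 ± 0.11 without Shld relative to with it (limma, adjusted p = 0.777 for each). Within single lines 0 members passed, where 9 genes passed in the knockout pair (0.0757%), 9 in the mutant degron pair (0.0757%) and 8 in the wildtype degron pair (0.0673%). At an unadjusted p below 0.05 there were 4, 0 and 3 members in these pairs, beside 11.5%, 2.06% and 4.02% of all genes. These fits compare 1 library with 1 and take their spread from the parental pair alone, with 1 residual degree of freedom, so a count of 0 says little about the members. The same limit holds for the response to Shld between lines, where 0 members were called against 8 of all genes for knockout and mutant degron (0.0673%), 9 for knockout and wildtype degron (0.0757%) and 4 for wildtype and mutant degron (0.0336%).

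The pairs themselves show how far the libraries of a line lay apart. The median absolute difference of the 25 genes between the libraries without and with Shld was 0.17 in parental cells, 0.17 in the knockout line, 0.09 in the mutant degron line and 0.13 in the wildtype degron line, against 0.13, 0.15, 0.09 and 0.11 over all genes tested. In the parental pair, for which the labels name no degron, 19 of 25 genes were higher without Shld, where 53.9% of all genes were. The widest difference in each pair was that of PCDHB2 in parental cells (0.59), CDH3 in the knockout line (-0.53), ITGB8 in the mutant degron line (0.24) and CDH4 in the wildtype degron line (-0.71). ITGB8 also differed by 0.60 ± 0.19 in the wildtype degron pair, at 4.20 with and 6.91 without Shld, which did not pass (limma, adjusted p = 1).

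**Figure D4:**
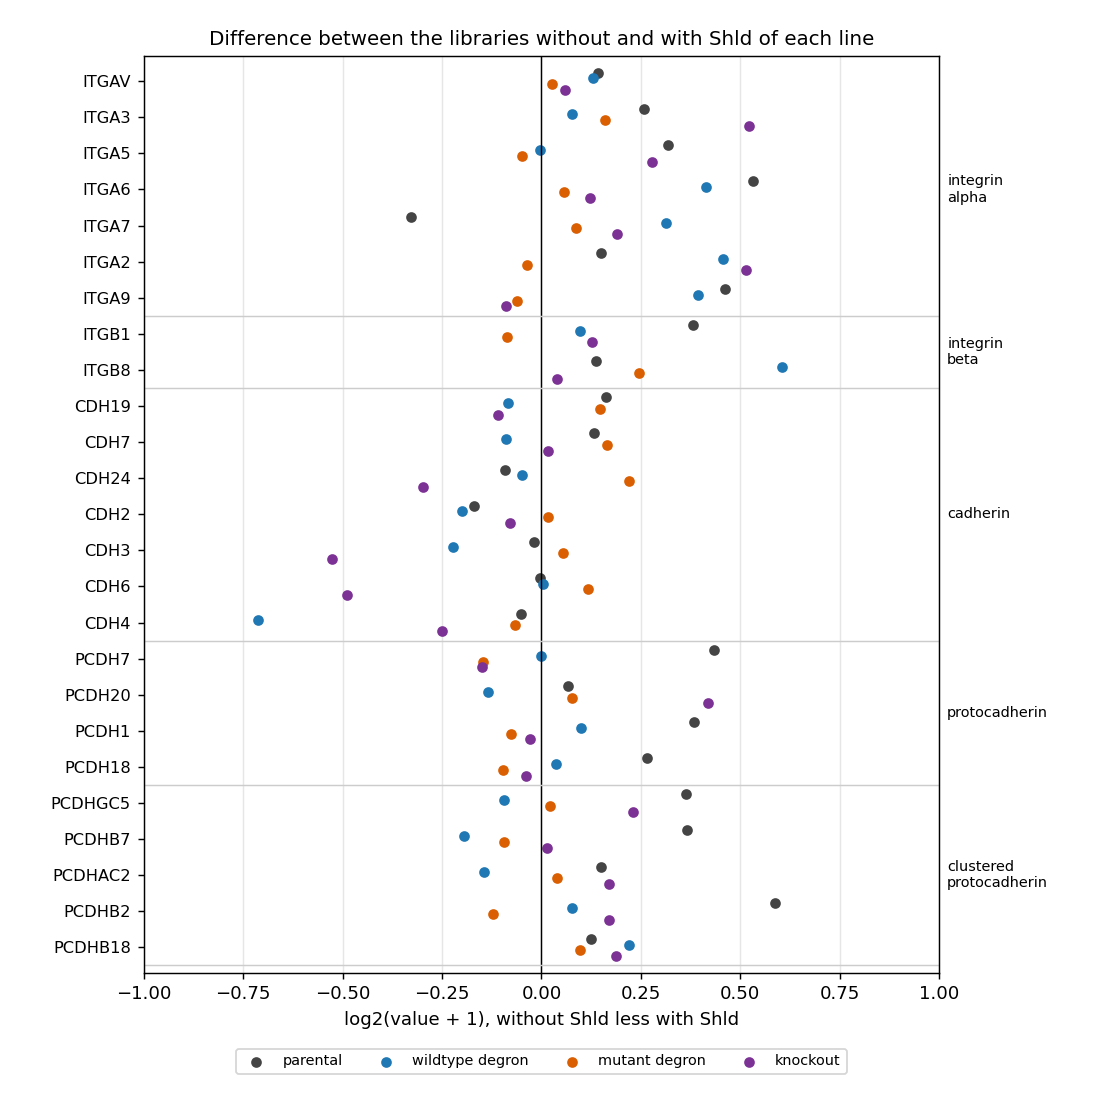
Difference between the library without and the library with Shld of each line on the log2(value + 1) scale, for the 25 genes. Each point is 1 pair of libraries and colours are lines. The points run from -0.71 for CDH4 in the wildtype degron line to 0.60 for ITGB8 in that line, the mutant degron pair is the narrowest, and 19 of 25 parental points lie to the right of 0.

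The partners of these receptors were taken from lists by role. Of 19 integrin ligands tested, 12 were higher and 2 lower in the knockout line, 10 higher and 1 lower in the mutant degron line, and 14 higher and 0 lower in the wildtype degron line (limma). This made 73.7%, 57.9% and 73.7% of the list, beside 37.8%, 24.6% and 41.4% of all genes. Their median differences were 0.89, 0.55 and 0.64, beside -0.03, -0.04 and 0.0003 for all genes. FN1, or fibronectin, the ligand of the ITGA5 and ITGAV receptors, was at 37.1 and 47.6 in parental cells, 1140.0 and 1253 in the knockout line, 296 and 268 in the mutant degron line and 38.3 and 47.9 in the wildtype degron line. It rose by 4.80 ± 0.14 and 2.72 ± 0.14 in the knockout and mutant degron lines, with 0.03 ± 0.14 in the wildtype degron line (limma, adjusted p = 4.02e-07, 1.51e-05 and 0.896). CTGF, a matricellular protein, was at 2.40 and 3.55 in parental cells, 78.5 and 79.1 in the knockout line, 31.9 and 29.5 in the mutant degron line and 3.51 and 5.42 in the wildtype degron line. Like FN1 it was far higher in the knockout and mutant degron lines and overlapped with parental cells in the wildtype degron line. SPP1, or osteopontin, a ligand of the ITGAV and ITGA9 receptors, ran against them and was at 505 and 409 in parental cells, 9.84 and 20.1 in the knockout line, 53.2 and 54.8 in the mutant degron line and 428 and 439.9 in the wildtype degron line. Its level fell by 4.91 ± 0.25 and 3.05 ± 0.25 in the knockout and mutant degron lines (adjusted p = 4.89e-06 and 0.000132).

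Several laminin and collagen IV chains rose in all 3 derived lines. The laminin chain LAMB1 rose by 1.61 ± 0.09, 1.42 ± 0.09 and 0.77 ± 0.09 in the knockout, mutant degron and wildtype degron lines, and COL4A1 by 1.53 ± 0.12, 1.13 ± 0.12 and 0.81 ± 0.12 (limma). POSTN, or periostin, fell by 2.77 ± 0.17 in the knockout line and rose by 1.01 ± 0.17 in the wildtype degron line.

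The adaptors inside the cell differed in both directions. Of 29 focal adhesion and integrin-binding genes tested, 11 were higher and 8 lower in the knockout line, 6 higher and 5 lower in the mutant degron line, and 9 higher and 2 lower in the wildtype degron line, with medians of 0.08, -0.04 and 0.14. The share called was 65.5%, 37.9% and 37.9%, beside 37.8%, 24.6% and 41.4% of all genes, so that of the wildtype degron line was not above the background. TLN1, talin, which switches integrins on, was at 52.4 and 59.0 in parental cells, 72.6 and 71.0 in the knockout line, 74.8 and 65.0 in the mutant degron line and 113 and 119 in the wildtype degron line. It rose by 0.36 ± 0.10, 0.32 ± 0.10 and 1.04 ± 0.10 (limma, adjusted p = 0.0196, 0.0447 and 0.00119). ACTN4, an actinin, rose by 0.91 ± 0.12, 0.51 ± 0.12 and 0.69 ± 0.12. VASP, which promotes actin assembly at adhesions, fell by 0.62 ± 0.10 and 0.43 ± 0.10 in the knockout and mutant degron lines.

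Of 8 catenins and cadherin partners, 3 were higher and 1 lower in the knockout line, 2 higher and 0 lower in the mutant degron line, and 3 higher and 1 lower in the wildtype degron line, with medians of 0.04, 0.03 and 0.08. So 4, 2 and 4 of the 8 passed, near the background of 37.8%, 24.6% and 41.4%, and the genes named next are single genes and no result about the list. VCL, vinculin, which serves both integrin and cadherin junctions, rose by 0.73 ± 0.11, 0.57 ± 0.11 and 0.92 ± 0.11 (limma, adjusted p = 0.00157, 0.00915 and 0.0016). JUP, plakoglobin, fell by 0.91 ± 0.11 in the knockout line and rose by 0.44 ± 0.11 in the wildtype degron line. CTNNA1, alpha-catenin, passed in the wildtype degron line at 0.41 ± 0.10, and was at -0.12 ± 0.10 and -0.22 ± 0.10 in the other 2.

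Among 9 other members of the cadherin superfamily, 4 were higher and 1 lower in the knockout line, 3 higher and 0 lower in the mutant degron line, and 6 higher and 1 lower in the wildtype degron line, or 55.6%, 33.3% and 77.8%, beside 37.8%, 24.6% and 41.4% of all genes. FAT1, a giant cadherin, rose by 1.77 ± 0.15, 1.16 ± 0.15 and 1.00 ± 0.15 (limma, adjusted p = 7.44e-05, 0.00138 and 0.00233). RET, a receptor kinase with cadherin domains, was at 0.0735 and 0.219 in parental cells, 2.95 and 5.21 in the knockout line, 2.64 and 2.97 in the mutant degron line and 0.0920 and 0.274 in the wildtype degron line. Its high lines were thus the ones in which CDH6 was high. Like CDH6, RET reached a mean of 1 only through these lines, so its part in the counts above is no test. CELSR1, a planar polarity cadherin, fell by 0.75 ± 0.10 in the knockout line and rose by 1.15 ± 0.10 in the wildtype degron line. Of 5 desmosomal genes, 2 were higher in each derived line and 1 was lower in the mutant degron line, so 2, 3 and 2 of 5 passed against the same background. The lower gene was DSP, desmoplakin, which was at 10.1 and 6.09 in parental cells, 5.10 and 12.0 in the knockout line, 0.611 and 0.182 in the mutant degron line and 25.1 and 22.3 in the wildtype degron line.

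Of 6 transcription factors linked to the cadherin switch, 3 were higher and 1 lower in the knockout line, 2 higher and 0 lower in the mutant degron line, and 0 passed in the wildtype degron line (limma), or 66.7%, 33.3% and 0%, beside 37.8%, 24.6% and 41.4% of all genes. SNAI2, or Slug, a repressor of epithelial cadherins, was at 85.1 and 79.5 in parental cells, 195 and 167 in the knockout line, 112 and 106 in the mutant degron line and 79.4 and 79.4 in the wildtype degron line. PRRX1 was at 4.23 and 5.04 in parental cells, 17.4 and 17.9 in the knockout line, 5.91 and 6.87 in the mutant degron line and 4.25 and 4.04 in the wildtype degron line. Both stood above parental cells in all 4 libraries of the knockout and mutant degron lines, by 1.12 ± 0.09 and 0.40 ± 0.09 for SNAI2 and 1.73 ± 0.12 and 0.39 ± 0.12 for PRRX1 (adjusted p = 6.42e-05, 0.017, 1.89e-05 and 0.0401). Of 13 chromatin factors of the protocadherin clusters, 4 were higher and 1 lower in the knockout line, 1 higher in the mutant degron line and 5 higher in the wildtype degron line. These shares of 38.5%, 7.7% and 38.5% were near or below the background of 37.8%, 24.6% and 41.4%. NIPBL, the cohesin loader, rose in each, by 0.46 ± 0.11, 0.43 ± 0.11 and 0.55 ± 0.11, while CTCF, which binds the cluster promoters, was at 0.08 ± 0.09, 0.12 ± 0.09 and 0.13 ± 0.09 and did not pass.

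The genes nearest to the level rule were CDH4, ITGA9 and CDH6, with means of 1.30, 2.09 and 2.14 over the 8 libraries, and just below it ITGB4, PCDH10 and CDH8, with 0.925, 0.877 and 0.863. Of the 25, 22 had a mean of at least 1 in all 4 lines, the exceptions being CDH6, CDH4 and ITGA9.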

How the data were processed

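The authors' deposited table holds FPKM values of 8 libraries at 32087 loci, rescaled per library to a 75th percentile of 10, per the file headers and values. Reads were processed with TopHat and Cufflinks on hg19, per the submitters' processing notes. Tool versions, the annotation and strand use were not given in the sources used here. TruSeq libraries gave paired reads, per the labels' protocols. Absolute depth is unknown. Named genes without small RNAs, with the most abundant locus of each symbol and a mean of at least 1, were tested with limma 3.58.1 (R 4.3.3) on log2(value + 1), pseudocount 1, with a mean-variance trend and Benjamini-Hochberg adjustment over 11889 genes at 0.05, two-sided. Line comparisons used 1 mean per line (4 residual degrees of freedom), Shld over all lines an additive model (3), and single pairs the spread of the parental pair (1). The scripts were tested on simulated data. The members and gene lists were chosen with earlier results of these data known. Every member was named with its values, and of other lists the widest differences past the threshold, some genes of known central role added after their values were seen. Each library was left out in turn, and filters, pseudocounts and scalings were varied. Symbols that only begin like an integrin, such as ITGB1BP1, were left out as members.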

Additional observations from a re-analysis of the deposited data

Results flagged for a closer look

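Of 5 members whose second, less abundant locus had a mean of at least 1, 3 had it above the parental level in some derived lines. No comparison used these loci. The second locus of PCDHB7 had a mean of 5.93 in the knockout line (5.04 and 6.83), 6.17 in the mutant degron line (6.32 and 6.02) and 3.25 in the wildtype degron line (2.37 and 4.13), against 1.77 and 0.772 in parental cells. That of PCDH7 averaged 2.56 over the knockout pair (3.12 and 2.00) and 2.73 over the mutant degron pair (2.62 and 2.84), against 1.67 and 1.43 in parental cells. That of CDH19 had a mean of 3.05 in the mutant degron line (3.01 and 3.08), against a parental pair listed at 0 and 2.02. Not all second loci with a mean of at least 1 lay that way. In the wildtype degron line that of PCDH7 was at 0.639 and 0.592, below the parental pair. That of ITGB8 had a mean of 1.75 in parental cells and 1.41, 0.696 and 0.764 in the knockout, mutant degron and wildtype degron lines, and that of CDH3 had means of 1.39, 0.528, 0.624 and 1.46. None of these differences was tested.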

How the results depend on the processing

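Of 105 calls of a member in a comparison of 2 lines, 74 passed in each of the alternatives run, and 0 changed sign. By comparison these were 20 of 23 (knockout against parental), 14 of 20 (mutant degron against parental), 8 of 18 (wildtype degron against parental), 2 of 5 (knockout against mutant degron), 17 of 19 (knockout against wildtype degron) and 13 of 20 (mutant against wildtype degron). The 105 and the 74 include the calls of CDH6 and CDH4, which the level rule made differ. All of those calls passed in each alternative that kept the gene. The cause of the losses was not tested. Calls were lost both without 1 library and with all 8. With no filter on the mean, calls of CDH3, ITGB8, ITGA2, PCDHGC5, ITGA3 and PCDHB2, among others, were lost. That of CDH3 between knockout and mutant degron lines was also lost with all loci, a pseudocount of 5 or quantile normalization. With the Shld state as a replicate block, which pairs libraries by treatment and not by culture, the counts of members were 23, 20, 18, 5, 19 and 20. Leaving out 1 library gave, in the same order, 20 to 23, 15 to 20, 8 to 19, 2 to 6, 18 to 19 and 14 to 20 members, and 2746 to 4453, 1030 to 3599, 2323 to 5577, 433 to 1904, 4190 to 5755 and 3789 to 6476 genes; for Shld over the 4 lines it gave 0 to 1 gene. Without the 2 libraries named as 4 days without Shld, chosen after seeing the data, 22, 23, 20, 5, 18 and 21 members passed, the first comparison then being 1 library against 1. Of the 5 calls between knockout and mutant degron lines 3 were kept there, and those of CDH3 and ITGA2 were lost (limma, adjusted p = 0.141 and 0.0634). Without the knockout line 20, 19 and 20 members passed in the 3 comparisons that remained. Between knockout and mutant degron lines 1 member passed with a mean of at least 5 and 3 with no filter, and between knockout and wildtype degron lines 12 with a mean of at least 5, where fewer members were tested.

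For Shld, 0 members passed in any alternative. The number of genes over the 4 lines was 1 with a pseudocount of 0.1 or with the 3 derived lines alone. In the knockout pair it was 16 (pseudocount 0.1), 85 (mean of at least 5), 0 (no filter), 24 (all loci), 5 (quantile normalization) and 5 (median scaling). In the mutant degron pair it was 24 with all loci, 5 with a mean of at least 5, and 0 with a pseudocount of 0.1, no filter, quantile normalization, median scaling or the spread of the parental and knockout pairs. In the wildtype degron pair it was 2 with all loci, 0 with no filter, and 5 with a pseudocount of 0.1, either scaling or the wider spread. For the response difference of knockout and mutant degron it was 36 (all loci), 0 (no filter) and 3 (either scaling), and for knockout and wildtype degron 22, 0 and 5. For wildtype and mutant degron it was 7 (pseudocount 0.1), 10 (mean of at least 5), 0 (no filter or all loci) and 2 (quantile normalization or the wider spread). Counting symbols that only begin like an integrin would give 28 members. With 1 library per line and state, small responses to Shld were not detectable, and low genes such as CDH6 and CDH4 rest on few fragments.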
